A study of Homo sapiens with 4 samples.

Results

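The mucin genes MUC1, MUC2, MUC3A, MUC4, MUC5AC, MUC5B, MUC12, MUC13, MUC17 and MUC20 were read out in LoVo cells with and without the receptor tyrosine kinase MET. They were taken by name from GENCODE release 29, and all 10 were found among the 58825 gene rows. LoVo is an established human colon adenocarcinoma line whose MET receptor stays uncleaved and is active without its ligand. The controls, MET+, are described as LOVOGFPCTR with the genotype WT, and MET-KO cells, described as LOVOMETKOCTR, carry a MET knock out made with CRISPR-Cas9 under puromycin selection. Each group has 2 libraries, labelled as biological replicates, from cells grown in DMEM with serum and antibiotics, with no other treatment in either group. Knock-out cells were grown from single picked clones, and the sources used here do not say whether both MET-KO libraries come from 1 clone, so a difference between clones and an effect of MET cannot be told apart.

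Mucins are large glycoproteins whose serine- and threonine-rich repeats carry dense O-linked sugar chains. Secreted gel-forming mucins are joined through disulphide bonds and released by goblet cells, where they build the mucus layer of the colon. Transmembrane mucins stay on the apical surface, form the glycocalyx over the microvilli, and several bind receptor kinases or the actin-linked membrane scaffold through their short tails. Of the 10 genes, 3 encode secreted mucins (MUC2, MUC5AC, MUC5B) and 7 transmembrane ones.

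Libraries were made by QuantSeq, which reads 1 fragment near the 3' end of each polyadenylated transcript, so a count does not grow with transcript length. The deposited counts summed to between 8429142 and 10286552 per library, and values are given in CPM, which are counts scaled by edgeR to a common library size after TMM, a correction for library composition. At these depths 1 count equals 0.0919 to 0.121 CPM, and where a gene has 0 counts, the limit set by 3 counts lies between 0.276 and 0.362 CPM and covers counting error alone. The targeted gene MET (ENSG00000105976), on chromosome 7, was counted 2794 and 3272 times in MET+ but 861 and 965 times in MET-KO libraries, lower in MET-KO cells by a log2 fold change of -1.96. Of 9 colon epithelium markers, 2 were called higher and 6 lower in MET-KO cells, beside 27.2% higher and 26.9% lower over all tested genes. EPCAM (437.0 to 202.6 CPM) and CDH1 (142.0 to 77.3 CPM) fell, though both, like the keratins KRT8, KRT18 and KRT19, were well above the detection limit in every library. VIL1 and CDH17 were nearly or wholly missing from MET-KO cells and KRT20 from MET+ cells. Each of these passed the filter on low counts only through the other group, so its direction was fixed by the filter. Of a list of 9 genes of the Y chromosome, 8 had counts in both MET-KO libraries and 0 in either MET+ library.

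Across all genes, 7467 of 13801 tested genes (54.1%) passed a Benjamini-Hochberg adjusted p of 0.05 in the quasi-likelihood test of edgeR, 27.2% higher and 26.9% lower in MET-KO cells. Counts were recorded for 8 of the 10 mucin genes, and 4 passed the filter on low counts and were tested. MUC13 rose and MUC2 fell in MET-KO cells, while MUC1 and MUC3A did not pass the threshold. With 54.1% of all tested genes called, 2 calls among 4 mucins are no more than the background share.

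**Figure D1:**
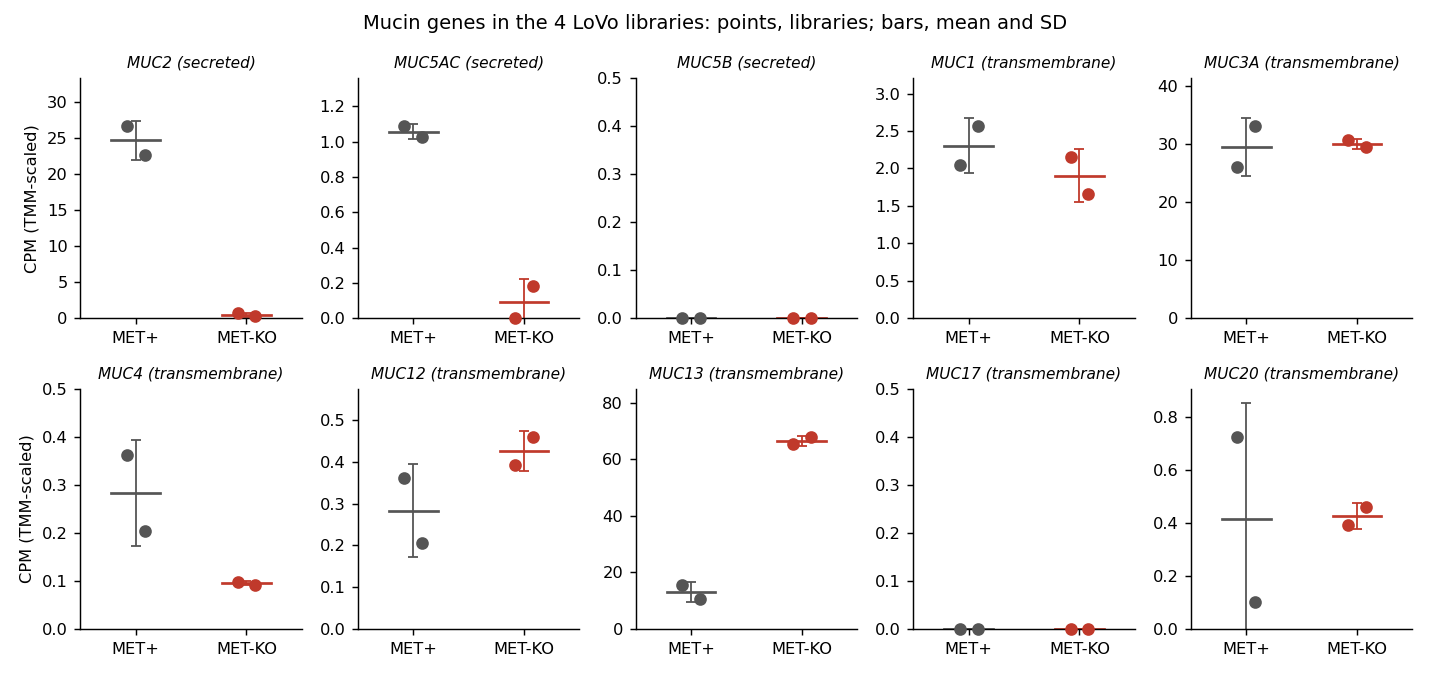
CPM (vertical axis, starting at 0 and scaled for each gene) of the 10 mucin genes in the 2 MET+ and 2 MET-KO libraries. Points are libraries, horizontal bars the mean and whiskers the SD (n = 2, cut at 0 for MUC5AC and MUC20). MUC2 lies at 22.8 and 26.7 CPM in MET+ and at 0.276 and 0.685 CPM in MET-KO libraries, MUC13 goes from 10.7 and 15.4 to 65.3 and 67.8 CPM, and MUC5B and MUC17 are at 0 throughout.

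The 250 bases before the transcription start of MUC2, MUC13 and MUC3A are shown because these are the mucin genes with over 100 counts in some library, of which MUC2 fell, MUC13 rose and MUC3A was not called. They are RefSeq promoters of GRCh38.p14, written 5′ to 3′ on the strand of the gene. Their starts lie 1, 0 and 21 bases from the nearest start of any GENCODE transcript of the gene. The start used for MUC13 lies inside the gene, whose GENCODE span begins at 124953819 on the minus strand. MUC2 covers chr11:1074624-1074873 on the plus strand, MUC13 chr3:124934752-124935001 on the minus strand and MUC3A chr7:100949284-100949533 on the plus strand. Capitals mark matches, on either strand, to short motifs of factors known for gut genes. The letters searched were TTTATG for CDX factors and CAAAGTCC for HNF4. For FOXA factors they were TGTTTAC and for GATA factors AGATAA. SP1 was searched as GGGCGG, TEAD factors as GGAATG and the TATA box as TATAAA.
MUC2: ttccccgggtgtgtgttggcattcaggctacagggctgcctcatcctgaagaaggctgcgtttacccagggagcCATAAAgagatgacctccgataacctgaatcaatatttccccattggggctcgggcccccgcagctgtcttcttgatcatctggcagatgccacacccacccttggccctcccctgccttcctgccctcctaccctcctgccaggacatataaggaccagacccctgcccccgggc
MUC13: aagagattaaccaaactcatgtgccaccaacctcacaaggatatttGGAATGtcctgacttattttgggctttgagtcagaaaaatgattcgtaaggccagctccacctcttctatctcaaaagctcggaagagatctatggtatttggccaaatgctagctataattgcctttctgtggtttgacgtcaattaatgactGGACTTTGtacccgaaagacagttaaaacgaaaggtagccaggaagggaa
MUC3A: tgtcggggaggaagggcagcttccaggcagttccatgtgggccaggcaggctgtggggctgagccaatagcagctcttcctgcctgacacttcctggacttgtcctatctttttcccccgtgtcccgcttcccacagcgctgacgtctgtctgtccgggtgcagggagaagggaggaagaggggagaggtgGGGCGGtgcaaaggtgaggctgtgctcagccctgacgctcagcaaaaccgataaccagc
The window of MUC2 held 1 match, the reverse complement of the CDX motif, 176 bases before the start, a motif found in 9.64% of the 35116 RefSeq windows of this length. MUC13 held a TEAD match 204 bases before the start (11.9% of windows) and an HNF4 match at 50 bases (1.02%). MUC3A held 1 SP1 match at 59 bases, a motif found in 42.6% of windows. FOXA and GATA motifs, in 2.98% and 9.17% of all windows, were in 0 of the 7 mucin windows found (MUC1, MUC2, MUC3A, MUC4, MUC12, MUC13, MUC17). GC content was 59.6% for MUC2, 61.6% for MUC3A and 41.6% for MUC13, against a median of 58.0% (quartiles 46.4% and 68.0%). No motif is contained in another, and a match describes letters and not a bound site. The motifs were chosen after the sequences and the expression values were seen.

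MUC2 (ENSG00000198788, chromosome 11, 1074875 to 1110511, plus strand, GRCh38) is the main gel-forming mucin of intestinal goblet cells. Its counts were 221 and 222 for MET+ but 7 and 3 for MET-KO, that is 26.7 and 22.8 CPM against 0.685 and 0.276 CPM. Both MET-KO values lay far below both MET+ values, and the groups did not overlap, as was the case for 75.6% of all tested genes. The mean fell from 24.7 ± 2.77 CPM (SD, n = 2) to 0.480 ± 0.290 CPM (SD, n = 2). On the log2 scale the difference was -5.66 ± 0.32 (standard error), with an adjusted p of 9.37e-17 from edgeR. MUC2 passed the filter on low counts only through the MET+ libraries, so its direction in this test was fixed by the filter. Without that filter the log2 fold change was -5.67. Pooling the libraries of each group, MUC2 was 51.8-fold lower in MET-KO cells, with a counting interval (exact, 95%) of 27.9 to 108.8. The size rests on few MET-KO counts, as the log2 fold change was -6.42 without MET-KO replicate 1 and -5.14 without MET-KO replicate 2. Its log2 fold change was lower than that of all but 1.20% of the tested genes. In bulk RNA, fewer cells that make a transcript and less transcript per cell cannot be told apart.

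MUC5AC (ENSG00000215182, chromosome 11, 1157953 to 1201138), the surface mucin of stomach and airways, is encoded beside MUC2. Its counts were 9 and 10 in MET+ and 0 and 2 in MET-KO libraries, low in all and lower in the latter. The filter removed it, so it has no call. Its pooled ratio of MET-KO to MET+ was 0.0900 (counting interval 0.0102 to 0.373). Without the filter, the edgeR test gave a log2 fold change of -3.32 and an adjusted p of 0.0143. That value rests on few counts, since the estimate was -2.44 without MET-KO replicate 1 and -6.33 without MET-KO replicate 2. In the latter fit the only MET-KO library had 0 counts, so the direction was fixed. MUC5B (ENSG00000117983, chromosome 11, 1223066 to 1262172), a gel-forming mucin of airways and saliva, had 0 counts in all 4 libraries.

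MUC13 (ENSG00000173702, chromosome 3, 124905442 to 124953819, minus strand) encodes a transmembrane mucin of the gut surface with EGF-like domains. The MET+ libraries held 128 and 104 counts, the MET-KO libraries 667 and 738, or 15.4 and 10.7 CPM against 65.3 and 67.8 CPM. Every MET-KO value was above every MET+ value, and the 2 MET-KO libraries were closer to each other than the MET+ ones. From 13.1 ± 3.38 CPM the mean rose to 66.6 ± 1.79 CPM (SD, both n = 2), a 5.1-fold step. On the log2 scale this was 2.36 ± 0.14 (standard error), with an adjusted p of 7.9e-16 from edgeR. MUC13 stood at percentile 94.6 of all tested genes and at percentile 92.6 of those on chromosome 3.

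MUC3A (ENSG00000169894, chromosome 7, 100949555 to 100968346, plus strand) encodes a transmembrane mucin of enterocytes. Its counts were 215 and 322 for MET+ and 313 and 320 for MET-KO, or 25.9 and 33.0 CPM against 30.6 and 29.4 CPM. Both MET-KO values lay between the MET+ values. The means were 29.5 ± 4.99 and 30.0 ± 0.868 CPM (SD, n = 2 each), and the log2 fold change was 0.02 (95% interval -0.26 to 0.30, adjusted p = 0.911, edgeR). The name of its close paralog, MUC3B, was not matched in the annotation used here, so MUC3A is uncertain in this respect. The antisense gene AC254629.1, which overlaps the 3' part of MUC3A, had at most 2 counts.

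MUC1 (ENSG00000185499, chromosome 1, 155185824 to 155192916, minus strand), a widely expressed membrane mucin that binds ERBB receptors and beta-catenin, was low. Its 17 and 25 counts in MET+ and 22 and 18 in MET-KO libraries correspond to 2.05 and 2.56 CPM against 2.15 and 1.65 CPM, and the groups overlapped. The log2 fold change was -0.29 with a wide 95% interval from -1.17 to 0.60 (adjusted p = 0.608, edgeR), so no difference was detectable at this depth and the interval leaves room for either direction.

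The other transmembrane mucins were at the edge of detection. MUC4 (ENSG00000145113, chromosome 3), an ERBB2 partner, had 3 and 2 counts in MET+ and 1 and 1 in MET-KO libraries, a pooled ratio of 0.342 (counting interval 0.0326 to 2.09). MUC12 (ENSG00000205277, chromosome 7), a colonic glycocalyx mucin, had 3 and 2 against 4 and 5 counts, a ratio of 1.54 (0.463 to 5.85). MUC20 (ENSG00000176945, chromosome 3), whose product is known to bind the docking site of MET, had 6 and 1 against 4 and 5 counts, a ratio of 1.10 (0.364 to 3.47). All 3 intervals include 1. MUC17 (ENSG00000169876, chromosome 7), a mucin of the small intestine, had 0 counts in all libraries.

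MUC20 is also the least certain of these genes. Of the 50-base words in the last 500 bases of its coding transcripts, 65.1% occur in transcripts of other genes, among them MUC20-OT1, which overlaps it on the same strand. MUC20-OT1 itself had 145 and 159 counts in MET+ and 75 and 138 in MET-KO libraries (log2 fold change -0.75, adjusted p = 0.0029, edgeR). For MUC17 the share was 48.8%, and for the other 8 mucin genes 0 such words were shared. How reads in shared exons were assigned is not given in the sources used here.

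Summed over the 10 genes, mucin counts took 72.6 and 70.5 CPM in MET+ and 99.6 and 100.4 CPM in MET-KO libraries. The make-up of this sum differed more than its size. MUC2 held 36.7% (Wilson 95% interval 33.0 to 40.6) and 32.3% (28.9 to 35.9) of the mucin counts of the MET+ libraries, against 0.688% (0.333 to 1.41) and 0.275% (0.0935 to 0.805) in MET-KO libraries. MUC13 went from 21.3% and 15.1% to 65.5% and 67.6%. MUC3A held 35.7% and 46.8% in MET+ and 30.7% and 29.3% in MET-KO libraries, while the sum over all mucins was larger in the latter. In all, secreted mucins made up 38.2% and 33.7% of mucin counts in MET+ cells and 0.688% and 0.458% in MET-KO cells. These intervals cover counting error only, since PCR copies of 1 molecule could not be recognised.

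MUC3A, MUC12 and MUC17 lie side by side within 109.2 kb of chromosome 7. Over the 673 genes tested there, the log2 fold change had a median of 0.50 and was above 0 for 77.4%, against a median of 0.01 and 50.4% over all tested genes. MUC3A thus lay 0.48 below the median of its chromosome on the log2 scale, at percentile 23.9 of it. When the null value of the edgeR test was moved from 0 to each gene's chromosome median, MUC3A was called lower than that median, with a difference of -0.48 (adjusted p = 0.00415, edgeR). Against the median of its 10 Mb window, 0.53 over 90 tested genes, the difference was -0.51 (adjusted p = 0.00266, edgeR). The nearest tested genes on both sides were higher in MET-KO cells. ACHE, which encodes acetylcholinesterase, lies 52.6 kb away and went from 14.3 to 28.8 CPM (adjusted p = 1.35e-06, edgeR), and TRIM56, an antiviral ubiquitin ligase, lies 26.7 kb away at 0.98 (adjusted p = 4.83e-09, edgeR). Of the 74 other tested genes within 2 Mb of the cluster centre, 54 were called higher, 4 lower and 16 were not called. Their median was 0.65. The shares over all tested genes were 27.2% higher and 26.9% lower.

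The secreted mucin genes MUC2, MUC5AC and MUC5B span 187.3 kb of chromosome 11, whose median log2 fold change was 0.04. Within 2 Mb of their centre 57 other genes were tested. Of these, 20 were called higher, 13 lower and 24 neither, beside 27.2% higher and 26.9% lower over all tested genes. The 57 genes had a median of 0.13, between extremes of -2.09 and 7.08. MUC2 at -5.66 lay below each of these neighbours. On one side AP2A2, an adaptor subunit of endocytosis, fell (log2 fold change -1.38, adjusted p = 2.97e-12, edgeR), and on the other TOLLIP, an inhibitor of Toll-like receptor signalling, had -0.03 (adjusted p = 0.842, edgeR). With the chromosome or window median as the null value, MUC2 was called lower and MUC13 higher as before.

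Around MUC13 on chromosome 3 (chromosome median 0.14), 25 other genes were tested within 2 Mb, with a median of 0.11. Of these, 8 were called higher, 3 lower and 14 neither, beside 27.2% higher and 26.9% lower over all tested genes. HEG1, which encodes a mucin-like transmembrane protein of endothelial and other cell junctions, lies 11.9 kb from MUC13 and rose from 8.80 ± 0.700 to 46.7 ± 0.474 CPM (SD, both n = 2). At 2.41 on the log2 scale (adjusted p = 2.53e-15, edgeR) it was the highest of these 25 and close to that of MUC13. ITGB5, an integrin subunit on the other side at 4.02 kb, had 0.11 (adjusted p = 0.361, edgeR). MUC4 and MUC20, at the other end of the long arm, adjoin TNK2, a kinase gene that fell (-1.27, adjusted p = 6.68e-11, edgeR), and on the other side AC233280.1 (-0.77, adjusted p = 0.258, edgeR). MUC1 lies between THBS3 (0.23, adjusted p = 0.578, edgeR) and DPM3, a subunit gene of dolichol-phosphate mannose synthase, which rose from 34.2 to 66.1 CPM (0.95, adjusted p = 4.32e-08, edgeR).

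**Figure D2:**
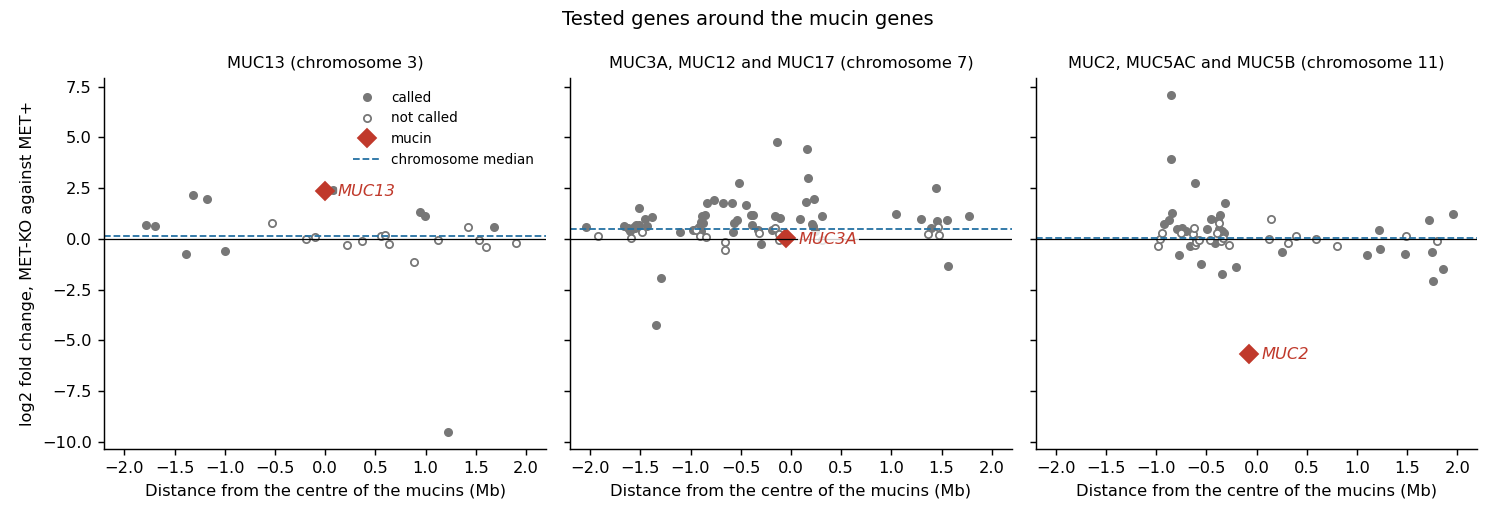
Log2 fold change of MET-KO against MET+ (vertical axis) of the tested genes within 2 Mb of 3 mucin loci, by distance from the centre of the mucin genes (horizontal axis, Mb). Filled grey points were called, open points were not, red diamonds are mucin genes and the dashed line is the chromosome median (0.14, 0.50 and 0.04). MUC13 at 2.36 and its neighbour HEG1 at 2.41 sit together, MUC3A lies below most of its neighbours, and MUC2 lies below all genes around it.

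Transcription factors known for gut mucin genes moved in both directions. Of a list of 13, 7 were tested and all 7 were called, 3 of them higher and 4 lower (median -1.43 on the log2 scale), beside 54.1% called, 27.2% higher and 26.9% lower, over all tested genes. The forkhead factors FOXA2 and FOXA1 both fell, FOXA2 from 520 and 628 counts to 10 and 15, and FOXA1 from a mean of 34.3 to 0.986 CPM. FOXA1, with 7 and 14 counts in MET-KO libraries, passed the filter on low counts only through the MET+ libraries, so its direction was fixed by the filter. With at least 10 counts in every library 6 of the list were tested, 3 higher and 3 lower, beside 3124 and 3095 of 11844 genes. HNF4A, a nuclear receptor of gut epithelium, fell from 73.8 ± 12.1 to 6.87 ± 1.78 CPM (SD, both n = 2), or -3.43 on the log2 scale (adjusted p = 5.75e-19, edgeR). SP1 fell by 1.43 on the log2 scale. KLF4, needed for goblet cell maturation, rose from 22.2 to 73.2 CPM, CDX2, a factor of intestinal identity, from 64.9 to 133.8 CPM, and GATA6 from 9.16 to 17.8 CPM. SPDEF and ATOH1, which drive the secretory lineage, had at most 4 counts in any library.

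Several genes that work with secreted mucins fell. Of 13 on the list, 4 were tested and these 4 were lower in MET-KO cells, beside 26.9% of all tested genes. REG4, AGR2 and TFF1 passed the filter only through the MET+ libraries, so their direction was fixed by it, and with at least 10 counts in every library 1 gene of the list was tested. Without MET+ replicate 2, or without MET-KO replicate 1, 6 were tested, with 1 called higher and 4 lower. REG4, a secreted lectin, had 6887 and 8211 counts for MET+ but 0 and 0 for MET-KO, at least 2940-fold lower. AGR2, the disulphide isomerase that assists MUC2 folding, had 369 and 432 counts against 0 and 0, at least 156-fold lower. TFF1, a trefoil peptide released with MUC5AC, had 31 and 43 counts against 0 and 0, at least 14.3-fold lower, and CREB3L1, a factor of secretory cells, had a log2 fold change of -1.81 (adjusted p = 0.000112, edgeR). FCGBP and TFF2 were below the filter, with 1 and 6 against 7 and 21 counts, and 5 and 6 against 2 and 11 counts.

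Enzymes of mucin O-glycosylation were called in both directions. Among 18 GALNT genes, whose products attach the first sugar, 11 were tested, 1 was higher and 6 lower (median -0.45), beside 27.2% higher and 26.9% lower over all tested genes. With the chromosome median as the null value 2 were higher and 4 lower, beside 3534 higher and 3601 lower of all 13801 tested genes. Of those called lower, GALNT10 on chromosome 5 (-0.45) and GALNT16 on chromosome 14 (-0.49) lay -0.02 and 0.03 from their chromosome medians of -0.43 and -0.515. GALNT5 fell from 38.4 ± 2.93 to 3.49 ± 0.783 CPM (SD, both n = 2), or -3.45 on the log2 scale (adjusted p = 1.02e-16, edgeR). GALNT1 fell from 81.8 to 41.1 CPM and GALNT12 from 17.5 to 8.72 CPM, and GALNT11, on chromosome 7, rose 2.3-fold. Of 15 enzymes that extend or cap this sugar, 11 were tested, 4 higher and 4 lower (median 0.23). GCNT3 and ST6GALNAC1 passed the filter only through the MET+ libraries and ST6GALNAC3 only through the MET-KO libraries. Their direction was therefore fixed by the filter. The same holds for GALNT3, called lower among the GALNT genes, which passed only through the MET+ libraries. GCNT3, the branching enzyme typical of mucin-secreting tissue, had 2731 and 3338 counts for MET+ but 0 and 1 for MET-KO, a pooled fold of 7097 (counting interval 1273 to 280400). B3GNT3, which extends core 1, and the branching enzyme GCNT4 also fell, with log2 fold changes of -2.46 and -3.65. The sialyltransferases ST3GAL1 and ST3GAL2, which cap core 1, rose with log2 fold changes of 0.77 and 0.75.

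Partners of the transmembrane mucins were called in both directions. Of 14 genes on this list, 13 were tested, with 3 higher and 6 lower (median -0.26). Over all tested genes 27.2% were called higher and 26.9% lower. Besides MET, ERBB3 (-1.28) and EZR (-0.88), which links membrane proteins to actin, were among those that fell. MMP14, a protease that can shed MUC1, rose from 14.8 to 36.3 CPM, and CTNNB1 and GOPC had log2 fold changes of 0.64 and 0.42. EGFR and ERBB2, at -0.24 and -0.23, did not pass the threshold. EGFR is encoded on chromosome 7 and lay -0.745 from its chromosome median. With the chromosome median as the null value 3 genes of this list were higher and 8 lower, beside 3534 and 3601 of all 13801. Against the 10 Mb window median 2 were higher and 7 lower, beside 3485 and 3479 of all 13801. Other mucin and mucin-like genes were mostly silent, with 7 of the 13 found at 0 counts in all libraries and 3 tested. All 3 were called, 1 higher and 2 lower, beside 54.1% called over all tested genes. Of these, OVGP1 passed the filter only through the MET+ libraries, so its direction was fixed by the filter. PODXL, a sialomucin encoded on chromosome 7, rose from 85.9 ± 0.176 to 185.5 ± 4.17 CPM (SD, both n = 2), or 1.11 on the log2 scale (adjusted p = 5.68e-12, edgeR), 0.61 above its chromosome. CD164 (-0.27) and OVGP1 (-1.46) were called lower with adjusted p of 0.0217 and 0.0296 from edgeR, and with DESeq2, or with the replicate number as a block, 1 gene of this list was called in place of 3.

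**Figure D3:**
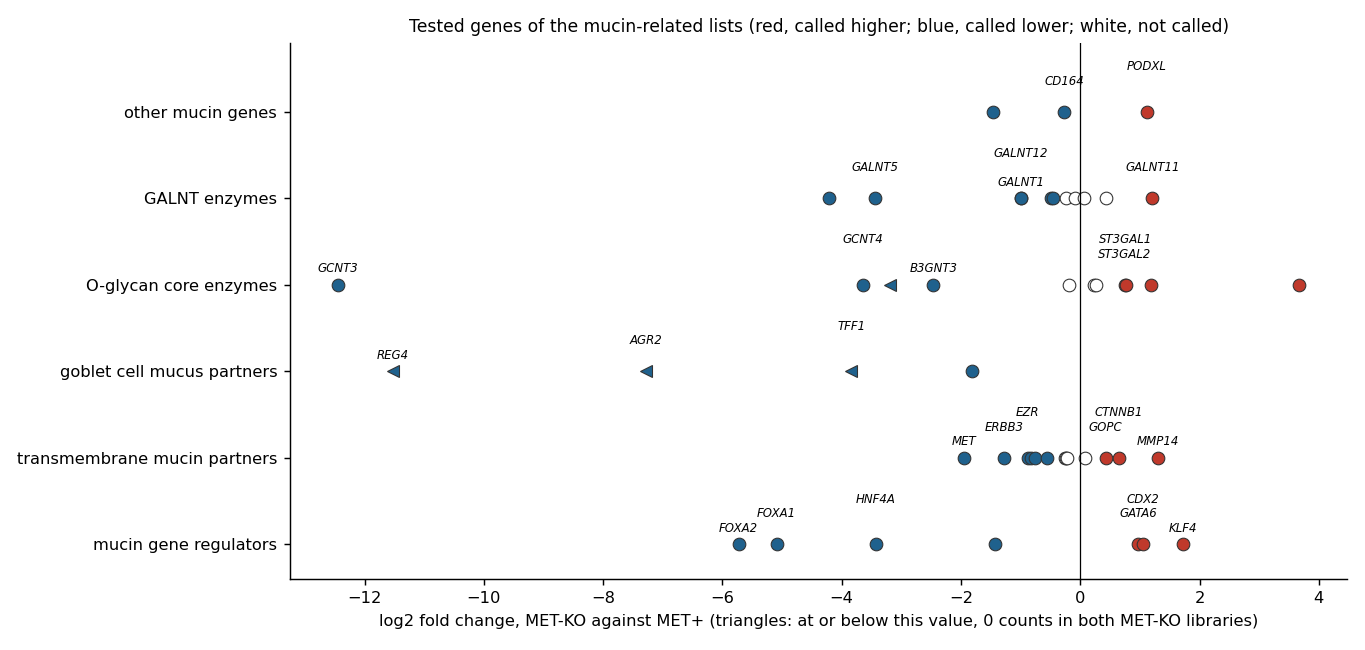
Log2 fold change of MET-KO against MET+ (horizontal axis) of each tested gene on 6 lists related to mucins (vertical axis). Red points were called higher, blue points lower and white points were not called, and triangles mark genes with 0 counts in both MET-KO libraries, drawn at the lower bound of their decrease. The secreted partners REG4 and AGR2 and the enzyme GCNT3 (drawn at its fitted value, from 0 and 1 counts in MET-KO cells) lie farthest to the left. FOXA2 (-5.73), FOXA1 (-5.09) and GALNT3 (-4.22) lie to the left of the triangle of TFF1. The membrane partners lie between -1.96 and 1.30.

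Markers of other cell types were low in both groups but not equal. Summed over 6 fibroblast genes the level was 1.64 to 2.17 CPM in MET+ and 3.62 to 4.23 CPM in MET-KO libraries, with COL1A2 and DCN at 0 in all. Summed over 5 immune genes it was 6.15 to 9.74 CPM in MET+ and 0.881 to 1.10 CPM in MET-KO libraries, with LYZ, which gut secretory cells also express, at 38 and 79 against 3 and 1 counts, while PTPRC and CD3E were at 0. Over 3 endothelial genes it was 0.845 to 0.922 CPM and 0 to 0.0979 CPM. These counts do not show that other cell types were present, and any part of such cells in the mucin differences was not tested.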

How the data were processed

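RNA of 2 MET+ and 2 MET-KO LoVo samples was sequenced with the QuantSeq 3' FWD kit. The authors deposited 1 file per sample with whole, unnormalized read counts of 58825 genes and 99 spike-in sequences, which had 0 counts. The submitters' processing notes name cutadapt 1.16, STAR 2.5.4a, featureCounts 1.6.2, DESeq2 1.18.1 and GRCh38. The annotation, strand and multi-read settings are not given in the sources used here. Gene names and positions came from GENCODE 29, which held 58552 of the IDs. Counts were tested in R 4.3.3 with edgeR 4.0.16 (filterByExpr, TMM, quasi-likelihood, condition as the only term, adjusted p threshold 0.05 over 13801 genes) on 8429142 to 10286552 counts per library. The factors were 0.949 to 1.06. Intervals of log2 fold changes used the moderated degrees of freedom. Related lists were described by counts, and from each at most the 3 called genes with the largest change in each direction were named, given a mean log2 CPM of at least 3, besides MET and the nearest tested gene on each side of a mucin cluster. The members, lists and this rule were chosen with earlier results of these data known. ATOH1, CREB3L1, EGFR, ERBB2, FCGBP, GALNT3, GALNT8, GALNT9, MUC19, OVGP1, SP1, SPDEF, ST6GALNAC1, ST6GALNAC3, TFF1 and TFF2 were named after their values were seen. The list of transcription factors was first set with 1 more gene, which is not reported here. DESeq2 1.42.0 and the other settings of the closing section were the alternatives. The fits were tested on simulated data.

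Replicates differed by more than counting noise (chi-square per degree of freedom 5.45 and 4.86) and were kept as separate samples. Whether they came from separate cultures is not given, so p-values measure the spread between these samples. An exact two-sided permutation test of 2 against 2 cannot go below p = 0.333, so calls rest on the spread shared across genes.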

Additional observations from a re-analysis of the deposited data

How the results depend on the processing

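Over 12 alternative settings, MUC13 was called higher in 12 (log2 fold change 2.10 to 2.64) and MUC1 in none (-0.48 to -0.10, smallest adjusted p 0.521, edgeR). MUC2 was called lower in the 11 that could test it (-6.42 to -5.14). In the settings with the main filter on low counts, MUC2 passed only through the MET+ libraries, so its direction was fixed by the filter. With at least 10 counts in every library MUC2 was not testable. In that setting 1 of 3 tested mucins, 1 of 1 secreted partners and 5 of 8 core enzymes were called, beside 6219 of 11844 genes. MUC3A turned to -0.48 and -0.51 when the chromosome or 10 Mb window median was the null value, by construction, and ranged from -0.13 to 0.20 when each replicate was left out, negative without MET+ replicate 1 and without MET-KO replicate 1. Without the filter MUC5AC was called as well, giving 3 of 8 tested mucins, beside 7547 of 23153 genes. Against the chromosome or window median MUC3A was, giving 3 of 4 tested mucins each, beside 7135 and 6964 of 13801 genes. Without MET-KO replicate 2, MUC5AC had a log2 fold change of -6.33. There the remaining MET-KO library held 0 of its counts, so it passed the filter only through MET+ and its direction was fixed. Calls over all genes ranged from 5760 (DESeq2 Wald test) to 7547 (no filter).

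The other mucin-like genes fell from 3 calls to 1 with DESeq2's Wald test and to 1 with the replicate number as a block. Leaving out each replicate gave 1 to 2, with 1 call without MET+ replicate 1, MET+ replicate 2 or MET-KO replicate 2. The numbers do not pair the samples (correlation of same-numbered deviations -0.0349), and the block gave 7055 calls in all and changed no call of a mucin. Scaling by library totals raised the median of all tested genes to 0.11 from 0.01 and those of chromosomes 1, 3, 7 and 11 to 0.16, 0.25, 0.61 and 0.14. Without the filter these were 0.12, 0.21, 0.53 and 0.13, and with at least 10 counts those of chromosomes 1, 3 and 7 were 0.0564, 0.10 and 0.49. Without each replicate in turn they ranged from 0.0492 to 0.0806, 0.13 to 0.17, 0.50 to 0.56 and 0.0304 to 0.0677. Depth limits MUC1, MUC4, MUC5AC, MUC12 and MUC20.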

Other observations

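Several genes of the mucin-related lists were below the filter yet not equally counted in the groups. GALNT9 had 0 and 0 counts in MET+ and 6 and 7 in MET-KO libraries, and GALNT8 had 4 and 0 against 0 and 0. The secretory factor SPDEF had 2 and 4 counts against 0 and 0, and ATOH1 0 and 0 against 2 and 3. MUC19, a gel-forming mucin of glands, had 3 and 0 against 4 and 5. Among the colon epithelium markers, KRT20 and VIL1 passed the filter, each through 1 group only. KRT20, a keratin of mature colon epithelium, had 0 counts for MET+ but 27 and 28 for MET-KO, at least 7.79-fold higher. VIL1, a brush border protein, had 43 and 58 against 3 and 3. None of these was tested for a link with the mucin genes.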
